A study of Sus scrofa with 8 samples.

Results

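Markers of macrophages and lymphocytes were followed in the back muscle of pigs, across 8 arrays of total RNA from the longissimus dorsi between the seventh and ninth ribs. Korean native pigs aged 7 months gave 4 arrays and Yorkshire pigs aged 6 months gave 4. Animals of both breeds are described as raised under the same conditions, no treatment is given, and the 4 arrays of a breed are labelled biological replicates. Breed and age cannot be told apart, and the stated aim was to find genes expressed differently between the breeds. The 7 markers were LAPTM5, AIF1, CD14, CD68 and CD163 for macrophages and JCHAIN and CD8B for lymphocytes. A probe set was taken for a marker where the platform annotation gave exactly 1 gene symbol and it was the marker's. This found 6 of the 7 markers, among 6765 genes with such a probe set, and CD68 was passed over. The 6 markers had 9 probe sets, of which 5 passed the filter on dim values that admitted 14399 of the 24123 probe sets.

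Skeletal muscle holds resident macrophages between its fibres, which clear debris and help fibres to regenerate, and a small number of lymphocytes that enter from blood. CD163 is the scavenger receptor for haemoglobin bound to haptoglobin and marks tissue-resident macrophages, and CD14 is the co-receptor through which monocytes and macrophages sense bacterial lipopolysaccharide. AIF1 encodes an actin-binding calcium-sensing protein of activated macrophages, and LAPTM5 a lysosomal membrane protein found throughout blood-derived cells, lymphocytes included. JCHAIN encodes the joining chain that links IgM and IgA into polymers in plasma cells. CD8B encodes the beta chain of CD8, the co-receptor of cytotoxic T cells, which pairs there with the alpha chain from CD8A.

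Genes of muscle fibres were detected on all arrays, with muscle creatine kinase (CKM) at 56600 to 96150 in Korean native pigs, against 77080 to 119000 in Yorkshire pigs. Nothing in the labels names the animals behind the arrays, so p-values measure the spread between these arrays. Signals are linear intensities that share 1 common level on each array as deposited, so a value says how bright a probe set was for its array, not how much RNA a gene had. The 95th percentile of 23 negative control probe sets, 91.5, is used below as a mark of dim signal. In whole muscle, fewer cells of a type and less RNA per cell cannot be told apart. The 3' signal of housekeeping controls exceeded the 5' signal by 3.33 log2 units on Korean native pig 1 and 3.03 on Yorkshire 3, against 0.87 to 1.73 on the other 6 arrays. Hybridisation controls were bright on replicates 1 and 3 of both breeds, at 13.42 to 13.70 log2 units, and dim on replicates 2 and 4, at 12.50 to 12.81.

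No marker passed the test between the breeds, and the highest value of most of them came from a single Korean native pig. LAPTM5, AIF1, CD163 and JCHAIN were all highest on Korean native pig 4, by 1.17 to 5.34 times the next array. CD8B was lowest on that array and highest on Yorkshire 3, which held the highest value of 16.9% of all tested genes. Of the 5 tested markers 0 passed an adjusted p of 0.05 in limma, as did 0 of 14399 probe sets (0.0%). At an unadjusted p under 0.05 there were also 0 of 5, against 3.96% of all tested probe sets, and in 0 of 5 did the breeds fail to overlap, against 2.56%.

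**Figure D1:**
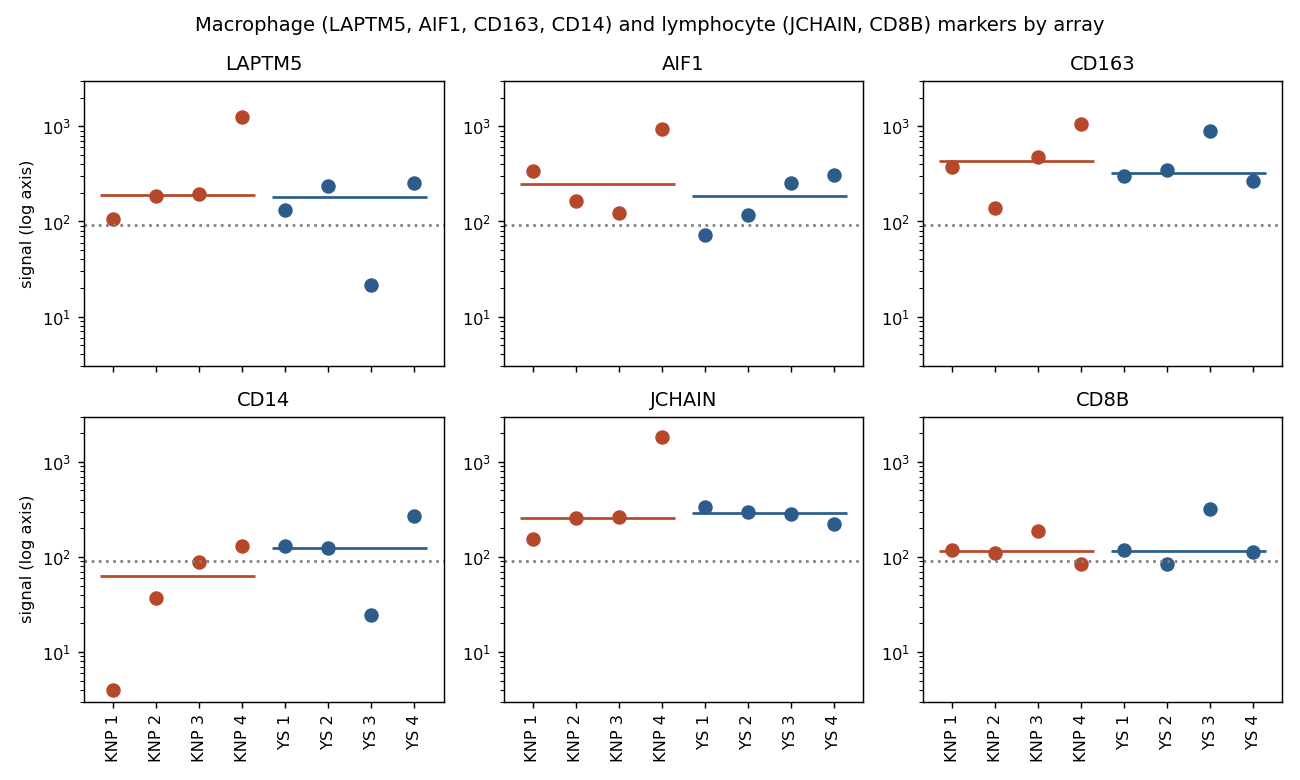
Signal of the brightest probe set of each marker on each array (vertical axis, log scale; KNP, Korean native pig; YS, Yorkshire). Points are arrays, short lines are breed medians, and the dotted line is the negative control limit of 91.5. LAPTM5, AIF1, CD163 and JCHAIN are highest on KNP 4, where CD8B is lowest.

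LAPTM5 had signals of 105, 187, 195 and 1260 in Korean native pigs 1 to 4, against 131, 234, 21.7 and 254 in Yorkshire pigs 1 to 4. Korean native pig 4 stood above all other arrays, 4.97 times the next, while the remaining arrays of both breeds overlapped. The log2 change, Korean native pig minus Yorkshire on the log2(signal + 32) scale, was 0.93 (SE 0.68, 95% interval -0.55 to 2.42; limma adjusted p = 0.999). Without Korean native pig 4 it was 0.24. Dropping Korean native pig 1 gave 1.32 and dropping Yorkshire 3 gave 0.41. These are the arrays with a high 3' to 5' ratio, on which LAPTM5 had its 2 lowest signals. That on Yorkshire 3 was below 91.5. The part of that ratio in these values was not tested. A second LAPTM5 probe set lay below 91.5 on all 8 arrays and gives no breed comparison.

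AIF1 had signals of 339, 163, 122 and 930 in Korean native pigs, against 71.4, 118, 254 and 305 in Yorkshire pigs. The breeds overlapped, with Korean native pig 4 at 2.74 times the next array and Yorkshire 1 lowest, below 91.5. The log2 change was 0.71 (SE 0.55, 95% interval -0.49 to 1.91; limma adjusted p = 0.999), or 0.18 with Korean native pig 4 left out and 0.40 with Yorkshire 1 left out. AIF1 shared its top array with LAPTM5 but not the order of the rest, since Korean native pig 1 was second for AIF1 and the lowest but one for LAPTM5.

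CD163 was high on Yorkshire 3 as well as on Korean native pig 4. Its signals were 375, 137, 480 and 1051 in Korean native pigs, against 304, 350, 898 and 264 in Yorkshire pigs. Each breed held 1 high array, and all other arrays lay at 480 or below. The log2 change was 0.03 (SE 0.51, 95% interval -1.08 to 1.14; limma adjusted p = 0.999), with values of -0.40 once Korean native pig 4 was dropped and 0.49 once Korean native pig 2 was. The interval allows a difference of about 1 log2 unit in either direction. A second, dimmer CD163 probe set, left out by the filter, ranged from 36.1 to 139 in Korean native pigs, against 45.1 to 140 in Yorkshire pigs, with its highest value on Yorkshire 2.

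CD14 was dim and did not pass the filter. Its brighter probe set had signals of 4.0, 37.2, 88.6 and 131 in Korean native pigs, against 129, 123, 24.6 and 272 in Yorkshire pigs. It was below 91.5 on 3 of 4 Korean native pig arrays and on 1 of 4 Yorkshire arrays. Fitted without the filter, its log2 change was -0.78 (SE 0.57, 95% interval -2.01 to 0.45; limma adjusted p = 1.0), or -0.38 without Korean native pig 1. A second probe set had a log2 change of -0.68, with 3 and 1 arrays below 91.5, and its highest value was on Korean native pig 3. The lowest values of the brighter probe set again fell on Korean native pig 1 and Yorkshire 3.

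JCHAIN, the plasma cell marker, had the widest gap between its highest array and the rest. It had signals of 154, 259, 260 and 1809 in Korean native pigs, against 339, 295, 283 and 224 in Yorkshire pigs. Korean native pig 4 was 5.34 times the next array, and the other 3 Korean native pigs lay below the Yorkshire median. The log2 change was 0.39 (SE 0.56, 95% interval -0.83 to 1.62; limma adjusted p = 0.999), or -0.33 once Korean native pig 4 was dropped. On the log2 scale the SD was 1.47 for Korean native pigs, against 0.22 for Yorkshire pigs (n = 4 each).

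CD8B, the T cell marker, went the other way on the array where JCHAIN was highest. It had signals of 119, 111, 186 and 83.3 in Korean native pigs, against 117, 85.3, 316 and 113 in Yorkshire pigs. Yorkshire 3 was highest, at 1.69 times the next array, and Korean native pig 4 and Yorkshire 2 were both dimmer than 91.5. The log2 change was -0.18 (SE 0.39, 95% interval -1.02 to 0.67; limma adjusted p = 0.999), and it was 0.16 without Yorkshire 3 and -0.36 without Yorkshire 2.

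**Figure D2:**
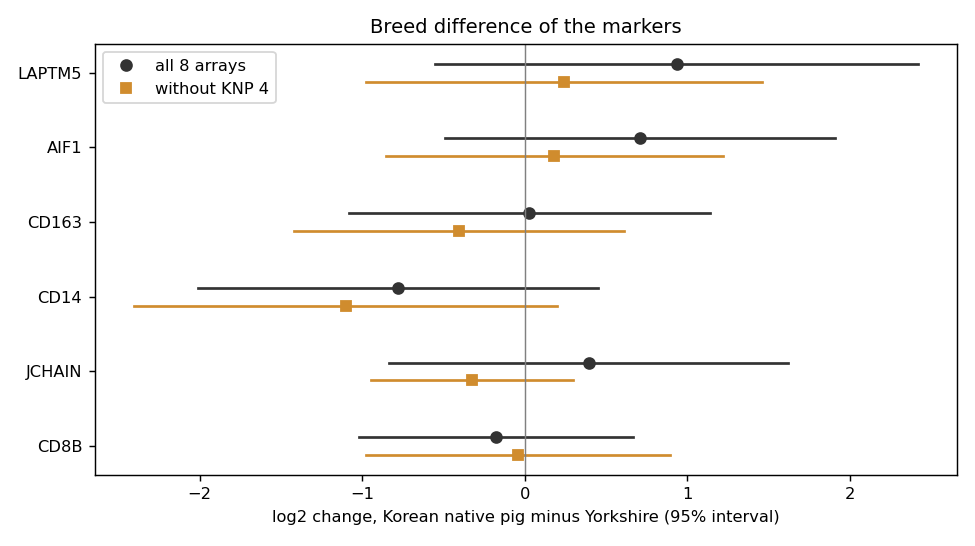
Log2 change of each marker, Korean native pig minus Yorkshire, with its 95% interval from limma (horizontal axis), on all 8 arrays (circles) and without KNP 4 (squares). CD14 comes from the fit without a filter on dim probe sets. All intervals include 0, and LAPTM5 moves to 0.24 from 0.93 when KNP 4 is left out.

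On the 4 arrays whose hybridisation controls were bright, LAPTM5 had a log2 change of 0.92, AIF1 of 0.48 and CD163 of -0.29. JCHAIN was at -0.55 there and CD8B at -0.33. Within the 4 dim arrays, which include Korean native pig 4, LAPTM5 was at 0.95, AIF1 at 0.94 and CD163 at 0.35, with JCHAIN at 1.34 and CD8B at -0.02. JCHAIN and CD163 thus had opposite signs in the 2 classes of arrays, and none of these values passed.

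The macrophage markers other than the dim CD14 had their highest value on the same array as JCHAIN, and none on that of CD8B. CD14 was highest on Yorkshire 4, at 272. JCHAIN shared its highest array, Korean native pig 4, with LAPTM5, AIF1 and CD163, and Pearson's r over the 8 arrays was 0.76, 0.59 and 0.59. Beyond that array the order differed: JCHAIN was second on Yorkshire 1, where AIF1 was lowest, and AIF1 was second on Korean native pig 1, where JCHAIN was lowest. CD8B was lowest on Korean native pig 4, with r of -0.75 for LAPTM5, -0.16 for AIF1 and 0.35 for CD163. Of the 8 pairs of a macrophage and a lymphocyte marker 5 had r above 0, and 0 passed an adjusted p of 0.05 over all 15 pairs of markers (exact permutation tests, two-sided; smallest adjusted p = 0.377). Before adjustment 1 passed, LAPTM5 with CD8B.

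LAPTM5 and JCHAIN had the highest r of any pair, 0.76 (exact permutation p = 0.0752, adjusted p = 0.377), while Spearman's rho was 0.29 (exact permutation p = 0.501, adjusted p = 0.868). Among 5330 genes JCHAIN ranked at place 80 by its r with LAPTM5. The relation rests on Korean native pig 4: without it r was -0.026 (exact permutation p = 0.946), and without the 2 arrays farthest from the LAPTM5 median, Korean native pig 4 and Yorkshire 3, it was 0.34 (exact permutation p = 0.519).

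AIF1 and JCHAIN had r = 0.59 (exact permutation p = 0.148, adjusted p = 0.377) but rho = -0.26 (exact permutation p = 0.536, adjusted p = 0.868). Without Korean native pig 4 their r was -0.80 (exact permutation p = 0.0191, not adjusted), and without the 2 arrays farthest from the AIF1 median it was -0.71. For CD163 and JCHAIN r was 0.59 (exact permutation p = 0.134, adjusted p = 0.377) and rho 0.43 (exact permutation p = 0.299, adjusted p = 0.771). With Korean native pig 4 left out it was 0.07, and -0.12 without the 2 arrays farthest from the CD163 median. On the 7 arrays other than Korean native pig 4, then, 2 of these 3 correlations with JCHAIN lay near 0 and that of AIF1 was negative.

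LAPTM5 and CD8B had r = -0.75 (exact permutation p = 0.0485, adjusted p = 0.377) and rho = -0.76 (exact permutation p = 0.0368, adjusted p = 0.276). Without Korean native pig 4 it was -0.80, and without both Korean native pig 4 and Yorkshire 3 it was -0.14 (exact permutation p = 0.797). Both arrays lie at the ends: LAPTM5 was highest and CD8B lowest on Korean native pig 4, and the reverse held on Yorkshire 3. CD163 and CD8B had r = 0.35 (exact permutation p = 0.390, adjusted p = 0.551) and rho = 0.19 (exact permutation p = 0.665, adjusted p = 0.868), and r was 0.79 without Korean native pig 4 (exact permutation p = 0.0379, not adjusted). Without the 2 arrays farthest from the CD163 median it was 0.43, and without Yorkshire 3 alone it was -0.16.

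**Figure D3:**
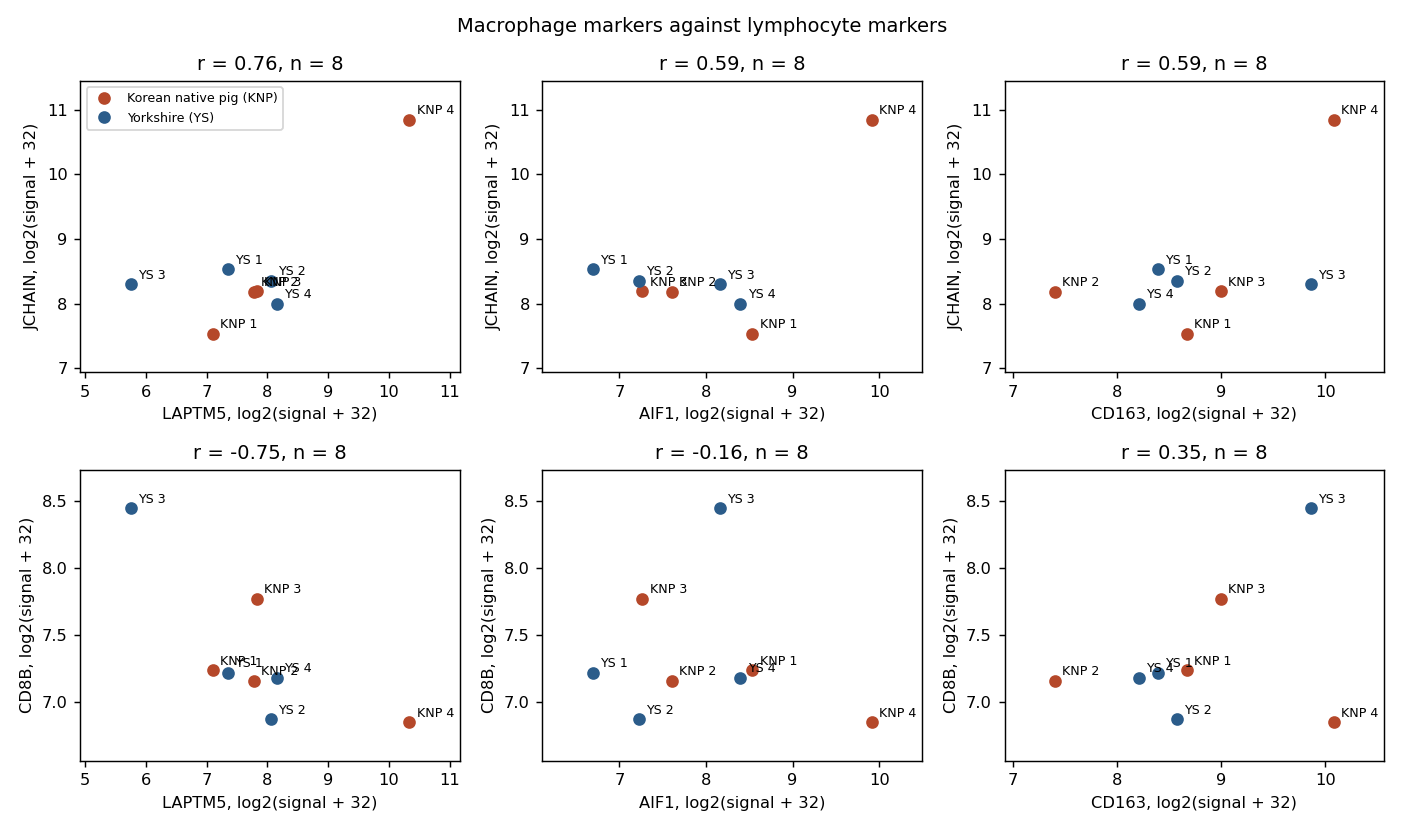
LAPTM5, AIF1 and CD163 (horizontal axes) against JCHAIN (upper row) and CD8B (lower row), on the log2(signal + 32) scale, 1 point per array, with Pearson's r over 8 arrays. KNP 4 has the highest JCHAIN value and the lowest CD8B value.

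The lymphocyte markers had a negative correlation with each other, which did not pass. JCHAIN and CD8B had r = -0.33 (exact permutation p = 0.350, adjusted p = 0.551) and rho = -0.38 (exact permutation p = 0.360, adjusted p = 0.771), and r was 0.12 without Korean native pig 4. LAPTM5 and the dim CD14 had r = 0.55 and rho = 0.81 (exact permutation p = 0.147 and 0.0218, adjusted p = 0.377 and 0.276). The 6 pairs of macrophage markers had r between -0.05 and 0.56, with a median of 0.33 and 0 of 6 passing, and without Korean native pig 4 the median was -0.26. The pairs of CD14 with JCHAIN and CD8B had r of 0.35 and -0.41 (exact permutation p = 0.404 and 0.321, adjusted p = 0.551 for both), with rho of 0.43 and -0.57 (exact permutation p = 0.299 and 0.151). Removing the breed means left r at 0.75 for LAPTM5 and JCHAIN and -0.75 for LAPTM5 and CD8B. Removing the means of the bright and dim arrays gave 0.73 and -0.56. Each of those classes holds 4 arrays, too few for a correlation of its own.

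Other leukocyte genes were highest on the same array as LAPTM5, AIF1, CD163 and JCHAIN. Genes other than the markers were counted over 4 lists of macrophage, general leukocyte, T and NK cell, and B and plasma cell genes. With the filter on dim values taken from the 7 arrays other than Korean native pig 4, so that no gene entered through that array, 27 genes were left. Of these, 21 (77.8%) had their highest value on Korean native pig 4, against 10.7% of all 5322 genes under that filter. The exceptions were LYVE1, CD209, CORO1A, WAS, GNLY and XBP1. The array and this filter were singled out after the values were seen. With no filter 35 of 58 list genes (60.3%) were highest there, against 10.5% of all genes. The filter on all 8 arrays gave 24 of 32, against 11.0% of all genes, and had let in LCK, LCP2, RAC2, CCL5 and VAV1 through Korean native pig 4.

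Of the 11 other macrophage genes, 9 were highest on Korean native pig 4, and the remaining 2, LYVE1 and CD209, on Yorkshire 3. Without the filter 12 of 19 (63.2%) were highest on Korean native pig 4, against 10.5% of all genes. ITGAM, MARCO, SIGLEC1, CYBA and FCGR1A were then also not highest there. The examples in this and the next 2 paragraphs were chosen after their values were seen. C1QC, a chain of complement C1q made by tissue macrophages, had signals of 801, 436, 538 and 3440 in Korean native pigs, against 360, 643, 1171 and 942 in Yorkshire pigs. FCGR2B, an inhibitory Fc receptor, had 248, 148, 487 and 2419 in Korean native pigs, against 224, 343, 731 and 326 in Yorkshire pigs. In both, Korean native pig 4 was highest and Yorkshire 3 second. Leaving Korean native pig 4 aside, 10 of the 11 genes were highest on Yorkshire 3, against 19.4% of all tested genes. Without the filter it was 13 of 19 (68.4%), against 20.5% of all genes. CD163 was also second on Yorkshire 3. LAPTM5 was lowest there and so did not share that order. Yorkshire 3 had a high 3' to 5' ratio, 3.03 log2 units, and its part in these values was not tested.

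Of the 10 general leukocyte genes in that count 8 were highest on Korean native pig 4. SRGN, the proteoglycan core of leukocyte granules, had 671, 491, 594 and 2550 in Korean native pigs, against 434, 516, 1114 and 640 in Yorkshire pigs. CD53, a tetraspanin of leukocytes, had 275, 130, 195 and 1331 in Korean native pigs, against 234, 267, 468 and 316 in Yorkshire pigs. SPI1, which encodes the factor PU.1 that drives macrophage and B cell genes, was at 276 on Korean native pig 4 and at 33.7 to 153 on the other 7 arrays.

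Of the 4 T and NK cell genes in that count CD8A, CD3E and LAT had their highest value on the array where JCHAIN did, and GNLY did not. Without the filter 9 of 17 T and NK cell genes other than CD8B were highest on that array. CD4, CD27, IL7R, CCR7, GNLY, PRF1, GZMH and CCL5 were not. For LAT the margin was small, with 202 on Korean native pig 4 and 187 on Korean native pig 3. CD8A had signals of 84.6, 140, 160 and 676 in Korean native pigs, against 144, 100, 265 and 251 in Yorkshire pigs. CD3E, a chain of the T cell receptor complex, had 98.8, 83.3, 157 and 502 in Korean native pigs, against 113, 138, 161 and 206 in Yorkshire pigs. LCK, the kinase bound to CD4 and CD8, was at 382 on Korean native pig 4 and at 29.5 to 121 on the other 7 arrays, but it passed the filter through that array and is given as a value alone. CD8A and CD8B therefore had their highest values on different arrays, Korean native pig 4 and Yorkshire 3, although their products pair in 1 receptor. Among the plasma cell genes SDC1 was highest on Korean native pig 4, at 255 against 87.6 to 188 elsewhere. XBP1, which many secretory cells express, varied little, from 1752 to 2254. Without the filter SDC1 was the only 1 of 5 B and plasma cell genes other than JCHAIN to be highest on Korean native pig 4. CD79B, TNFRSF17, CD38 and XBP1 were not.

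**Figure D4:**
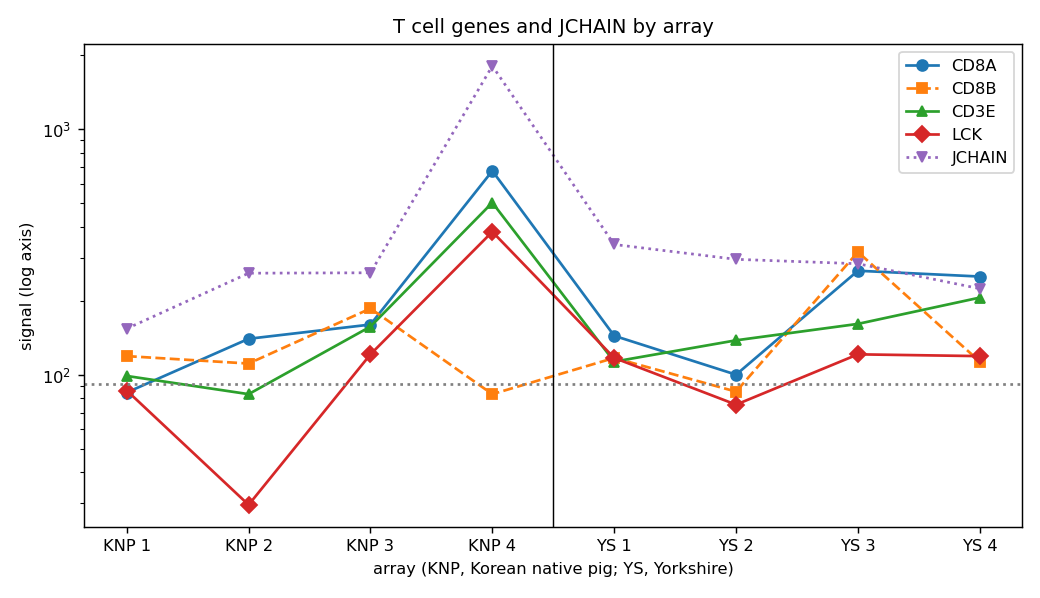
Signal (vertical axis, log scale) of CD8A, CD8B, CD3E, LCK and JCHAIN on each array (KNP, Korean native pig; YS, Yorkshire), with the negative control limit of 91.5 dotted. Of the genes shown, all but CD8B peak on KNP 4, and CD8B peaks on YS 3 at 316. LCK passed the filter through KNP 4. GNLY and CCL5, tested T and NK cell genes that are not shown, peak on KNP 3 and YS 4.

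No gene of the leukocyte lists passed the test between the breeds. Of the 14 tested macrophage genes 11 had a log2 change above 0, with a median of 0.28, beside 49.6% of all tested genes above 0 and a median of -0.0025. The 13 general leukocyte genes had 9 above 0 and a median of 0.04, the 7 T and NK cell genes 5 and 0.11, and the 3 B and plasma cell genes 2 and 0.11. The 5 genes let in through Korean native pig 4 are included here. In each list 0 genes passed, also at an unadjusted p under 0.05, where the share of all tested genes was 3.43%. Without Korean native pig 4 the medians were -0.21, -0.18, -0.37 and -0.21, while the median of all genes was -0.01. That array was singled out after most of these genes were seen to be highest on it. Leaving it out lowers these medians by construction, so they are not read as a breed difference. By smallest p, CD209, a lectin of macrophages and dendritic cells, was at -0.80 beside LAPTM5. LCP1, an actin-bundling protein of leukocytes, was at 0.92 and the GTPase RAC2 at 0.65. LAT, an adaptor of T cell receptor signalling, was at 0.71 and the chemokine CCL5 at -0.64 (limma adjusted p = 0.999 for each).

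**Figure D5:**
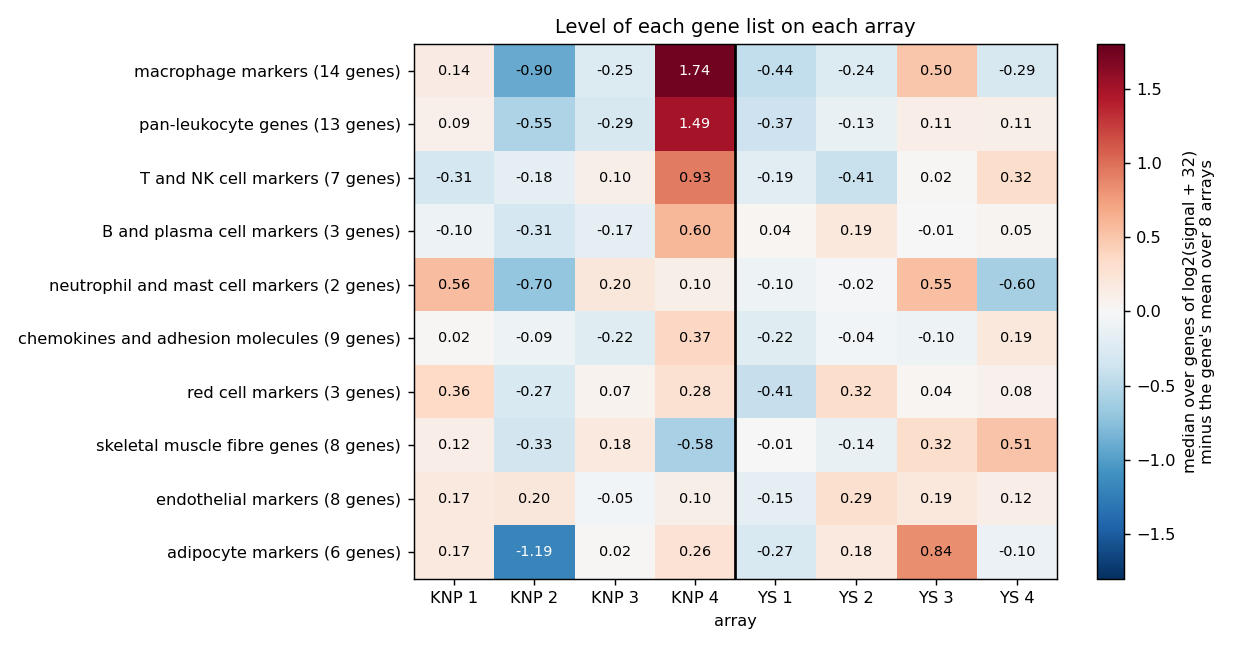
Median over the tested genes of each list of log2(signal + 32) minus the gene's own mean over the 8 arrays (colour and printed value), by array (KNP, Korean native pig; YS, Yorkshire). The macrophage list is at 1.74 on KNP 4 and at 0.50 on YS 3, and the muscle fibre list is at -0.58 on KNP 4.

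Measures of other cells on Korean native pig 4 were as follows. The level of its muscle fibre list was the lowest of the 8 arrays, at -0.58, though MYH2 was lowest on Korean native pig 3, at 14910 against 52310. The summed signal of these genes ran from 422854 to 657072 in Korean native pigs, against 576177 to 879636 in Yorkshire pigs. All 8 genes had a log2 change below 0 by breed (median -0.32). That median was -0.038 after quantile normalisation, -0.033 on the bright arrays and -0.63 on the dim ones. TNNC2, the fast troponin C, was at -0.42 and MYL1 at -0.33. Endothelial genes were at 0.10 and red cell genes at 0.28 there, against -0.15 to 0.29 and -0.41 to 0.36 on the other arrays. Adipocyte genes were at 0.26 there, against -1.19 to 0.84 on the other arrays. Their highest level was on Yorkshire 3, the array where 10 of the 11 other macrophage genes were highest once Korean native pig 4 was set aside, and its part in that was not tested. Their summed signals ran from 3657 to 10082 in Korean native pigs, against 4473 to 8622 in Yorkshire pigs. The 3' to 5' ratio of Korean native pig 4, 1.20 log2 units, lay within the range of the other arrays. That of Yorkshire 3 was 3.03. The part of muscle fibre RNA in the marker values was not tested.

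Ligands that act on macrophages and lymphocytes were read from a list of chemokines and adhesion molecules. Of 9 tested genes 0 passed the adjusted threshold, and 2 had an unadjusted p under 0.05, where 3.43% of all tested genes did. IL34, a ligand of the macrophage growth factor receptor CSF1R, had signals of 403, 304, 310 and 346 in Korean native pigs, against 229, 295, 140 and 160 in Yorkshire pigs. The breeds did not overlap, as in 2.56% of all tested probe sets, and the log2 change was 0.69 (SE 0.26, 95% interval 0.12 to 1.25; limma adjusted p = 0.999). CXCL14, a chemokine that attracts monocytes, had 1537, 756, 415 and 508 in Korean native pigs, against 344, 462, 414 and 319 in Yorkshire pigs, with a log2 change of 0.84 (SE 0.34; limma adjusted p = 0.999). Neither was highest on Korean native pig 4. CXCL9, an interferon-induced chemokine that attracts T cells, and the adhesion molecule VCAM1 were, at 2257 and 2394 there against 121 to 692 and 444 to 1548 on the other arrays. CXCL9 and VCAM1 were named after their values were seen. Of the 9 tested genes 3 (33.3%) were highest on Korean native pig 4, with ICAM1 at 489, against 11.0% of all tested genes. CCL2, CCL4, CXCL12 and SELP were highest on other arrays.

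The genes whose pattern over the 8 arrays was most like each marker were ranked by Pearson's r among 5326 genes that are not markers, as a description. They share the arrays and their scaling with the marker. For CD163 the first was MRC1, the macrophage mannose receptor, at r = 0.97 (0.95 without Korean native pig 4), followed by SAT1 at 0.96 and TRIM52 at 0.95. MRC1 had signals of 315, 104, 239 and 633 in Korean native pigs, against 205, 256, 569 and 153 in Yorkshire pigs, the same 2 high arrays as CD163. For AIF1 the nearest were PLAC8 at 0.97, CLEC2D, which encodes a lectin-like ligand of an NK cell receptor, at 0.94 and CRLF3 at 0.93. For LAPTM5 they were the translation factor EIF4B, CKB and TGFB1, at 0.91, 0.91 and 0.90. For JCHAIN they were EML4 at 0.95, HK1 at 0.94 (0.62 without Korean native pig 4) and TAPT1 at 0.93. For CD8B they were MCF2L and SPATS2L, both at 0.95, and the splicing factor SRSF1 at 0.94. For the dim CD14 they were PABPN1, SPPL3 and CAMLG, at 0.98, 0.95 and 0.93. Of these genes MRC1 was on the list of macrophage genes.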

How the data were processed

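The deposited intensity values, 1 per probe set and array, are linear. Per the submitters' processing notes the software was GCOS 1.3; no source used here gives the summarisation method. The mean without the highest and lowest 2% was 500.1 to 500.2 on every array, so the values came scaled to a common level. The table held 24123 probe sets and 0 further value columns. No 2 arrays were identical (highest correlation 0.949). The platform annotation, which can be old, gave 1 symbol for 10099 probe sets and several for 198, while 13826 were unnamed here. All 6 markers found matched the Sscrofa11.1 gene table by gene number with 0 symbols changed. No genome build of the array was given, so no positions are printed.

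Values were taken as log2(signal + 32), which understates changes of dim genes. Excluded were 124 control probe sets and the dimmest 40% by mean log2 value (a limit near a signal of 98.6), leaving 14399. limma 3.58.1 in R 4.3.3 (lmFit, eBayes with an intensity trend) was fitted on all 8 arrays without covariates, with Benjamini-Hochberg adjustment over all probe sets. It was tested on simulated data. Where a gene had several probe sets, the one with the highest mean over the arrays was used. The number of arrays limits the precision.

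Correlations over arrays used exact permutation over 40320 orders, adjusted over 15 pairs. The named genes were all markers, the 3 genes most like each, and the 2 of smallest p from each of 10 lists. Other genes, said to be examples or checks in the text, were chosen after their values were seen. The markers and lists were chosen with earlier results of these data known. The 10 lists were macrophage, general leukocyte, T and NK cell, B and plasma cell, neutrophil and mast cell, red cell, muscle fibre, endothelial and adipocyte genes, and chemokines with adhesion molecules. Alternatives were the pseudocount, the filter, normalisation, the variance trend, blocks and leaving out arrays. The lists without the markers, the values without Korean native pig 4 alone, and the filter taken from the other 7 arrays were added after seeing the data.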

Additional observations from a re-analysis of the deposited data

Results flagged for a closer look

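Within a breed, 5 of 36 checks found 1 array far from the other 3. Chance gives about 1 in 20 for normal values and separate checks. These checks use the linear and the log2(signal + 32) values of the same arrays, so the count shows no excess over that rate. All 5 were on the linear signal, and 0 were on the log2(signal + 32) scale used for the tests. Korean native pig 4 stood apart for JCHAIN, at 1809, and for LAPTM5, at 1260. Yorkshire 3 stood apart for CD163, at 897.8, and for CD8B, at 315.6. Yorkshire 2 stood apart for the second, dimmer CD163 probe set, at 139.9, while its brighter probe set was at 350 on that array.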

How the results depend on the processing

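No marker passed under any alternative. With the replicate block 1 probe set passed, NR4A3, which is no marker (limma adjusted p = 0.00943), and LAPTM5 was at 0.93 with limma adjusted p = 0.992. Same-numbered arrays deviated from their breed means with correlations of -0.04, 0.31, 0.10 and 0.05. Their hybridisation controls were close, at 13.42 and 13.43, 12.77 and 12.81, 13.50 and 13.70, and 12.50 and 12.57 log2 units. The labels do not say whether the numbers pair arrays, and the main fit did not take them as pairs. The block changed no other call, and 3 of 4 Korean native pig arrays correlated best with the Yorkshire array of their own number. Every other alternative called 0 probe sets, with 382 to 1074 at an unadjusted p under 0.05, and leaving out 1 array at a time called 0 each time. Of 118 alternative values of the markers' log2 changes 107 kept their sign and 11 did not. CD163 was at -0.29 within the bright arrays and at -0.04, -0.40, -0.10, -0.03 and -0.16 without Korean native pig 3 or 4 or Yorkshire 1, 2 or 4. JCHAIN was at -0.55 within the bright arrays and -0.33 without Korean native pig 4. CD8B was at 0.17 with Korean native pig 1 and Yorkshire 3 left out and 0.16 without Yorkshire 3. The second LAPTM5 probe set, dim on all arrays, was at -0.21. Leaving out 1 array gave 0.24 to 1.32 for LAPTM5, 0.18 to 1.06 for AIF1, -0.40 to 0.49 for CD163, -0.33 to 0.78 for JCHAIN, -0.36 to 0.16 for CD8B and -1.23 to -0.38 for CD14.

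Of the pairs of a macrophage and a lymphocyte marker 0 passed an adjusted p of 0.05 under any alternative. Of 128 alternative correlations 9 changed sign. Without Korean native pig 4 these were LAPTM5 with JCHAIN (-0.026), AIF1 with JCHAIN (-0.80) and AIF1 with CD8B (0.22). Without the 2 farthest arrays they were AIF1 with JCHAIN (-0.71), AIF1 with CD8B (0.16) and CD163 with JCHAIN (-0.12). AIF1 with JCHAIN was at -0.26 by rank, AIF1 with CD8B at 0.076 with the means of the bright and dim arrays removed, and CD163 with CD8B at -0.16 without Yorkshire 3. Leaving out 1 array gave r of -0.026 to 0.93 for LAPTM5 with JCHAIN, -0.80 to 0.76 for AIF1 with JCHAIN, -0.43 to 0.22 for AIF1 with CD8B and -0.16 to 0.79 for CD163 with CD8B. Leaving out the dimmest 60% removed LAPTM5, AIF1 and CD8B from the test. Subtracting each array's median over all probe sets raised every breed log2 change by 0.076. The median of the muscle fibre genes, -0.32, was -0.038 after quantile normalisation. The cause of these changes was not tested.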

Other observations

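Of the 2 tested neutrophil and mast cell genes and the 6 tested adipocyte genes, 0 were highest on Korean native pig 4. Among all tested genes 11.0% were highest there, so these few genes do not set their cell types apart. MS4A2, a chain of the mast cell IgE receptor, had signals of 286, 57.7, 209 and 196 in Korean native pigs, against 87.6, 120, 278 and 19.6 in Yorkshire pigs (log2 change 0.61, limma adjusted p = 0.999). KIT, the stem cell factor receptor of mast cells, had 174, 94.8, 133 and 119 in Korean native pigs, against 187, 161, 174 and 221 in Yorkshire pigs (log2 change -0.44, limma adjusted p = 0.999). Neither was highest on Korean native pig 4. CFD, which encodes the fat cell product adipsin, was highest on Korean native pig 1, at 6328, with a log2 change of 0.70, and CIDEA, a lipid droplet protein, on Yorkshire 2, at 394, with -0.79 (limma adjusted p = 0.999 for both). EGFL7 and ENG of endothelial cells were at -0.62 and -0.64, and ALAS2 and HBM of red cells at -0.47 and 0.28, with the same adjusted p. The endothelial genes as a list did not share that direction, since 5 of the 8 tested were above 0, with a median of 0.03. On Korean native pig 2 the macrophage list was at its lowest level, -0.90, and so was the adipocyte list, at -1.19.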
